A study of Homo sapiens with 27 samples.

Results

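The subject is the alpha- and beta-tubulin isotypes of DLD1 cells, a human colorectal carcinoma cell line, and among them TUBB3, the beta isotype known from neurons. Members were taken from the expression table by gene symbol, and 8 of 9 listed symbols had a row among its 10470 genes. These were the beta isotypes TUBB3, TUBB, TUBB6, TUBB2A and TUBB4B (5 of 5) and the alpha isotypes TUBA1B, TUBA1C and TUBA4A (3 of 4), and TUBA1A is not analysed here. TUBB3 was chosen from its own values, because it had been seen to be higher in the knockdowns of these libraries. Its levels and differences are therefore given as a description, with no test, and the other 7 isotypes were tested. All 8 isotypes passed the filter on low values described with the first test.

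The study asked how transcription changes when the 3 VPS37 paralogs, which are alternative subunits of the membrane-sorting complex ESCRT-I, are removed singly, in pairs or all at once. Cells received siRNAs to VPS37A, VPS37B and VPS37C together (siVPS37ABC), to pairs of them (siVPS37AB, siVPS37AC, siVPS37BC) or to 1 paralog (siVPS37A, siVPS37B, siVPS37C). The controls were cells given a combination of non-targeting siRNAs (siCTRL) and non-transfected cells (NT). Each of the 9 groups had 3 libraries, RNA was collected 72 h after transfection, and it was measured with an amplicon panel for human transcripts (Ion AmpliSeq). A single siRNA sequence was used for each paralog, so an effect of the sequence and an effect of losing the paralog cannot be told apart. The 3 replicates are named biological in the labels, with a batch number that matches the replicate. Separate cultures are not described, so the p-values measure the spread between these libraries, which may be technical.

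Alpha- and beta-tubulin pair into the dimers that polymerise into microtubules, the tracks of intracellular transport and the fibres of the mitotic spindle. Humans carry several genes for each partner, and the encoded isotypes differ mostly in their C-terminal tails, where many microtubule-binding proteins and modifying enzymes act. TUBB and TUBA1B are the common isotypes of dividing cells, TUBB3 and TUBB2A are best known from neurons, TUBB3 is also expressed in carcinomas, and cells lower tubulin mRNA when free tubulin dimers accumulate.

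The targeted genes were low in the cells that received their siRNA. In siVPS37ABC cells VPS37A averaged 0.422, VPS37B 3.44 and VPS37C 3.98 TPM (transcript abundance on a scale that sums to 1000000 per library, the unit of every level here), against 5.80, 46.4 and 17.5 TPM in siCTRL cells. Depth, estimated from the steps between low values, lay between 5290000 and 14400000 reads per library. For TUBB3 this corresponds to an estimated 240 to 2295 reads per library and for TUBB2A to 308 to 1309. The number that ends each library description differs between most knockdown and control libraries. Only numbers 88 and 603 hold libraries of both kinds, and values within them are given where they exist. Several epithelial genes were high in the 27 libraries, with means of 1776 TPM for EPCAM, 3295 TPM for KRT8 and 2521 TPM for KRT18. In the same list of 9 colon epithelial genes VIL1 was low, with a mean of 1.99 TPM (0.809 to 3.82), and LGALS4 had no row. Of 15 neuronal or neuroendocrine markers 1 had a row, MAP2, at 0.207 to 1.15 TPM, and the other markers are not analysed here. EPCAM, KRT8 and KRT18 fit the label of a carcinoma line, and low VIL1 is given beside them without a reading.

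The sequences upstream of the genes are shown for TUBB3 and TUBB2A, the isotypes whose RNA was higher in the triple knockdown, and for TUBB, the abundant beta isotype whose RNA was not called in any comparison. Each is 300 bases, from 250 before to 50 after a transcription start in RefSeq on GRCh38.p14, written 5′ to 3′ on the strand of the gene. Where RefSeq gives several starts, the window whose start lies nearest to that of the deposited transcript was taken. Capitals mark, on either strand, the GC box GGGCGG, the CCAAT box, the TATA box searched as TATAA, the AP-1 site TGANTCA and the cAMP response element, which reads TGACGTCA. Neighbouring matches may run together. The windows lie at chr16:89923092-89923391 on the plus strand (TUBB3), chr6:3157495-3157794 on the minus strand (TUBB2A) and chr6:30720102-30720401 on the plus strand (TUBB).
TUBB3: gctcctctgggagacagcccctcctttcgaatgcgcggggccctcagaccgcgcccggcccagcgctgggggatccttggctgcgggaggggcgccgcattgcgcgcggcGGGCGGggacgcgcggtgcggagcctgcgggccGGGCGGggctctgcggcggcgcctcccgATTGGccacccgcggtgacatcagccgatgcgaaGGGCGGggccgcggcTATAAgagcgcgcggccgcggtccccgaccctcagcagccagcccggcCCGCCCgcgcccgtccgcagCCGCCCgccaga
TUBB2A: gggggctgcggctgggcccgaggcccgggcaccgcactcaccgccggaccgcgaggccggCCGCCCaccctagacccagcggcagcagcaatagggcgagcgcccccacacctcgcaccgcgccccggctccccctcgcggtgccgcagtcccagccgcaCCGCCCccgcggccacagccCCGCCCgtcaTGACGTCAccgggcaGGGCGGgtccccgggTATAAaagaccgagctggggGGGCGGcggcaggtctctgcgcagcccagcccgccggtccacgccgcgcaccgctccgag
TUBB: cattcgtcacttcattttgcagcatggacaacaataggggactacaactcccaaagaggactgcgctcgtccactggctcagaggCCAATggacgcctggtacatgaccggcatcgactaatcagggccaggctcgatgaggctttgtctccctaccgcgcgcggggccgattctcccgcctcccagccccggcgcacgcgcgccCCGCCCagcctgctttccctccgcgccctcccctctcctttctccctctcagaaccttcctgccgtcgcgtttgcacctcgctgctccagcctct
TUBB3 and TUBB2A each hold 5 GC boxes and 1 TATAA, TUBB3 also 1 CCAAT, and TUBB2A also 1 TGACGTCA. TUBB holds 1 GC box and 1 CCAAT. Of 35116 such windows in the genome, 45% hold the GC box, 34.6% CCAAT, 20.4% TATAA, 7.71% TGANTCA and 1.85% TGACGTCA. A further RefSeq start of TUBB3 has a window with 1 TGANTCA, and a further start of TUBB has a window with 6 GC boxes, and no contrast between the isotypes is drawn from them. These matches describe letters in the windows and were picked with the sequences in view.

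TUBB3 RNA was higher in every knockdown than in siCTRL cells, and highest where VPS37A and VPS37B were both targeted. TUBB3 had 219.0, 200.2 and 153.6 TPM in siVPS37ABC cells, against 63.5, 37.5 and 52.0 TPM in siCTRL cells. In siVPS37AB cells it had 217.0, 157.9 and 210.5 TPM. The triple knockdown and this pair knockdown overlapped and both lay far above siCTRL.

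Pairs that included VPS37C gave lower TUBB3 levels. The siVPS37AC libraries had 126.2, 110.3 and 96.4 TPM of TUBB3. The siVPS37BC libraries had 126.9, 112.9 and 97.4 TPM. All 6 values lay above every siCTRL value and below every value of the triple knockdown.

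Among single knockdowns, siVPS37A had 112.6, 89.9 and 198.8 TPM of TUBB3, with replicate 3 far above the others. For siVPS37B the values were 114.6, 99.2 and 92.5 TPM. For siVPS37C they were 95.6, 74.1 and 68.4 TPM. None of these groups overlapped siCTRL. Non-transfected cells had 67.2, 52.6 and 72.0 TPM, which overlapped siCTRL and siVPS37C but no other knockdown.

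By mean the order of TUBB3 levels was siVPS37AB (195 ± 32.4 TPM), siVPS37ABC (191 ± 33.6), siVPS37A (134 ± 57.4), siVPS37BC (112 ± 14.8), siVPS37AC (111 ± 14.9), siVPS37B (102 ± 11.3), siVPS37C (79.4 ± 14.3), NT (64.0 ± 10.1) and siCTRL (51.0 ± 13.05; SD, n = 3 each). Every pair of neighbours in this order overlapped in its individual values. Within batches, 4 of the 8 pairs of neighbours had 1 sign in all 3 batches, namely siVPS37BC over siVPS37AC, siVPS37AC over siVPS37B, siVPS37B over siVPS37C and NT over siCTRL. The steps that did not overlap were larger ones, such as either group with both VPS37A and VPS37B targeted against siVPS37AC, siVPS37BC, siVPS37B or siVPS37C.

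**Figure D1:**
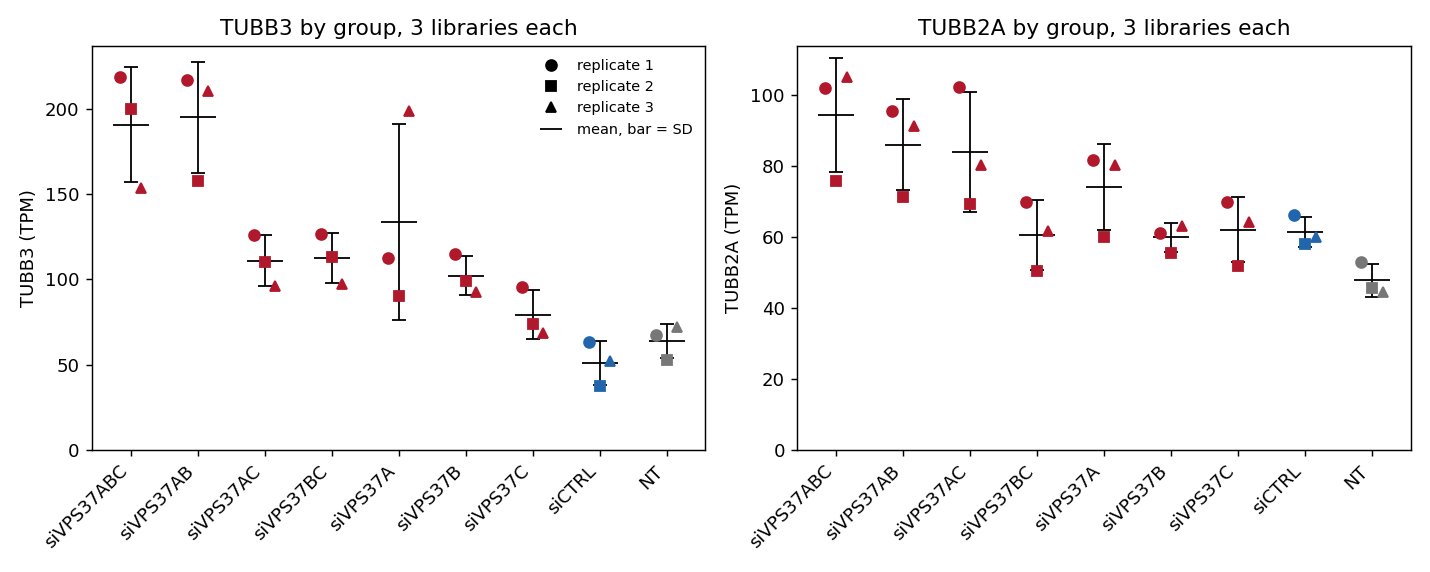
TUBB3 (left) and TUBB2A (right) in TPM on the vertical axes, by group on the horizontal axes; points are the 3 libraries of a group, shaped by replicate, with the mean and SD. The lowest siVPS37ABC value of TUBB3, 153.6 TPM, is above the highest siCTRL value, 63.5 TPM; for TUBB2A the siVPS37ABC libraries start at 75.8 TPM and siCTRL ends at 66.1 TPM.

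As differences in log2(TPM + 1) against siCTRL, TUBB3 was higher by 1.90 in siVPS37ABC, 1.93 in siVPS37AB, 1.13 in siVPS37AC and 1.15 in siVPS37BC. The differences for single knockdowns were 1.32 for siVPS37A, 1.01 for siVPS37B and 0.65 for siVPS37C, and each of the 7 had an SE of 0.225. Ranked by this difference among the 6458 genes tested, TUBB3 stood 16th in siVPS37ABC, 12th in siVPS37AB, 14th in siVPS37AC, 4th in siVPS37BC, 6th in siVPS37A, 10th in siVPS37B and 24th in siVPS37C. High ranks follow from the choice of TUBB3 by these same values and add no support. With library number as a term all 7 differences were smaller, at 1.53 in siVPS37ABC, 1.34 in siVPS37AB, 0.76 in siVPS37AC and 0.56 in siVPS37BC. These 7 differences share the siCTRL libraries and are not independent of each other. The difference of siVPS37ABC from siVPS37AB was -0.03, whose 95% interval of -0.50 to 0.43 leaves room for differences of either sign. Against siVPS37AC it was 0.77 and against siVPS37BC 0.75. For siCTRL against NT it was -0.34, so measured against NT every difference from a knockdown is smaller by that amount.

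Within a library number TUBB3 was also higher in the knockdown libraries than in siCTRL libraries. Within number 88, TUBB3 had 153.6 TPM in siVPS37ABC replicate 3 and 96.4 TPM in siVPS37AC replicate 3, against 63.5 and 37.5 TPM in siCTRL replicates 1 and 2. The differences in log2(TPM + 1) were 1.63 and 0.97. Within number 603, TUBB3 had 92.5 TPM in siVPS37B replicate 3 and 68.4 TPM in siVPS37C replicate 3, against 52.0 TPM in siCTRL replicate 3. NT replicate 3, also of number 603, had 72.0 TPM, above siVPS37C replicate 3. NT replicates 1 and 2 of number 88 had 67.2 and 52.6 TPM, below both knockdown libraries there. The siVPS37AB, siVPS37BC and siVPS37A libraries share no number with a control, so for these groups the number and the knockdown cannot be told apart by values within a number. These comparisons set single libraries side by side and carry no test.

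TUBB2A, the other beta isotype best known from neurons, rose in the triple knockdown. TUBB2A had 101.9, 75.8 and 105.1 TPM in siVPS37ABC cells, against 66.1, 57.9 and 60.02 TPM in siCTRL cells. The groups did not overlap, and replicate 2 was lowest in both. The difference in log2(TPM + 1) was 0.60 ± 0.17 (SE, adjusted p = 0.0114, limma, Benjamini-Hochberg over the 6458 genes that averaged 10 TPM or more). In this comparison 1417 of 6458 genes (21.9%) passed the threshold of 0.05, so 1 of 7 isotypes is near that background. Without replicate 1 of siVPS37ABC the adjusted p was 0.0501 and without its replicate 3 it was 0.0552. With the replicate number as a block it was 9.87e-05. Within library number 88, siVPS37ABC replicate 3 lay 0.76 above siCTRL replicates 1 and 2 on the same scale.

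The pairs that included VPS37A also had higher TUBB2A levels. In siVPS37AB cells TUBB2A had 95.3, 71.3 and 91.2 TPM, and in siVPS37AC cells 102.3, 69.1 and 80.3 TPM. Both groups lay above all siCTRL values. The limma differences were 0.47 (adjusted p = 0.0598) for siVPS37AB and 0.43 (adjusted p = 0.162) for siVPS37AC, both with an SE of 0.17. With the replicate block the adjusted p was 0.00182 for siVPS37AB and 0.00936 for siVPS37AC. In siVPS37BC cells TUBB2A had 69.7, 50.3 and 61.5 TPM, which overlapped siCTRL, with a difference of -0.03 and a 95% interval of -0.38 to 0.32.

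Single knockdowns showed no called change of TUBB2A. The values were 81.6, 59.99 and 80.3 TPM in siVPS37A, 61.1, 55.3 and 63.0 TPM in siVPS37B and 69.8, 51.8 and 64.2 TPM in siVPS37C, and each group overlapped siCTRL. The difference for siVPS37A was 0.26 (95% interval -0.09 to 0.60, limma adjusted p = 0.567). Against siVPS37BC the triple knockdown was higher in TUBB2A by 0.63 ± 0.17 (SE, limma adjusted p = 0.0139), and 12% of genes were called in that comparison. Without siVPS37BC replicate 2, which had the lowest value of its group, the adjusted p was 0.0986. It was 0.0557 without siVPS37ABC replicate 1 and 0.0758 without siVPS37ABC replicate 3. TUBB2A was also higher after control transfection, at 66.1, 57.9 and 60.02 TPM in siCTRL cells against 52.9, 45.6 and 44.5 TPM in NT cells, with no overlap. That difference was 0.36 ± 0.17 (limma adjusted p = 0.279, and 0.0347 with the replicate block).

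**Figure D2:**
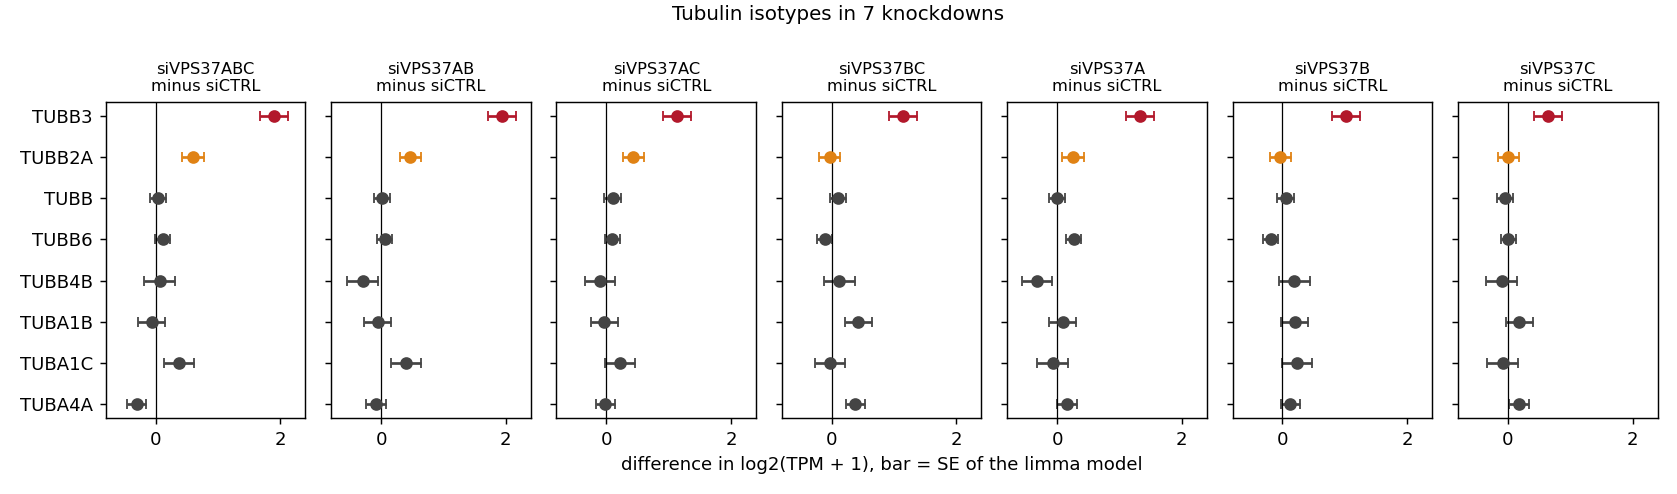
Difference in log2(TPM + 1) from siCTRL (horizontal axes) of the 8 isotypes (rows) in the 7 knockdowns (panels); points are limma estimates and bars their SE, n = 3 libraries per group. TUBB3 is the rightmost point of every panel, from 0.65 in siVPS37C to 1.93 in siVPS37AB, TUBB2A is next in the 3 panels with VPS37A and a second paralog, and the other 6 isotypes lie between -0.32 and 0.43.

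The abundant beta isotype TUBB, the main beta-tubulin of dividing cells, stayed near its control level. TUBB had 2326, 2152 and 2061 TPM in siVPS37ABC cells, against 2154, 1850 and 2370 TPM in siCTRL cells, and the groups overlapped. Its 7 differences from siCTRL lay between -0.04 and 0.10 in log2(TPM + 1), and the 95% interval for siVPS37ABC was -0.23 to 0.31. In siVPS37ABC cells TUBB3 differed from siCTRL by 1.86 more than TUBB did on the log2 scale.

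TUBB6 and TUBB4B, beta isotypes found in many tissues, were not called in any comparison. TUBB6 had 177.2, 162.8 and 185.9 TPM in siVPS37A cells, against 139.7, 145.9 and 149.8 TPM in siCTRL cells. These groups did not overlap, and the difference of 0.27 ± 0.12 (SE) had a limma adjusted p of 0.339. In siVPS37ABC cells TUBB6 had 166.5, 166.2 and 140.5 TPM, which overlapped siCTRL. TUBB4B varied widely within groups, with 320.5, 167.4 and 146.1 TPM in siVPS37C cells and 279.1, 203.4 and 169.5 TPM in siCTRL cells. Its differences from siCTRL ran from -0.32 in siVPS37A to 0.19 in siVPS37B, with an SE of 0.245.

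The alpha isotype TUBA1B had the highest level of the 8. TUBA1B had 5530, 5395 and 3812 TPM in siVPS37ABC cells, against 5617, 4834 and 4742 TPM in siCTRL cells, with overlap. Its highest group mean was in siVPS37BC, with 7711, 6963 and 5813 TPM, all above siCTRL. That difference of 0.43 ± 0.22 (SE) had a limma adjusted p of 0.442. NT cells had 7541, 5070 and 7610 TPM of TUBA1B, which overlapped both siVPS37BC and siCTRL. The siVPS37ABC values all lay below those of siVPS37BC, with a difference of -0.485 (95% interval -0.935 to -0.036, limma adjusted p = 0.156). TUBA1C, a near-identical copy of TUBA1B, had 254.6, 181.5 and 183.4 TPM in siVPS37ABC cells, against 238.5, 122.1 and 132.7 TPM in siCTRL cells. In both groups replicate 1 was the highest. The TUBA1C difference of 0.38 ± 0.24 (SE) had a limma adjusted p of 0.294, and 0.0378 with the replicate block. For siVPS37AB the TUBA1C difference was 0.40 with an adjusted p of 0.303, and 0.0357 with the block. The TUBA1 genes, and TUBB2A with its copy TUBB2B, are so alike that reads could be assigned to the wrong copy, and how the authors' counting treated this is not given in the sources used here.

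TUBA4A, an alpha isotype abundant in platelets and muscle, was called lower in the triple than in the siVPS37BC knockdown, the opposite direction to TUBB2A. TUBA1B differed in the same direction as TUBA4A but was not called. TUBA4A had 157.5, 146.9 and 113.5 TPM in siVPS37ABC cells, against 242.8, 230.8 and 195.1 TPM in siVPS37BC cells, with no overlap. The difference of -0.68 ± 0.15 (SE) in log2(TPM + 1) had a limma adjusted p of 0.00361. Against siCTRL, with 175.1, 175.7 and 160.8 TPM, the triple knockdown lay lower without overlap (difference -0.30, limma adjusted p = 0.171) and siVPS37BC lay higher (difference 0.38, adjusted p = 0.301). NT cells had 195.3, 185.5 and 269.2 TPM, above every siCTRL value. The difference of siCTRL from NT was -0.33 ± 0.15 (SE, limma adjusted p = 0.280).

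Across the comparisons few of the 7 tested isotypes were called. With limma, 1 rose in siVPS37ABC against siCTRL. None passed in siVPS37AB (14.8% of all genes called), siVPS37AC (4.4%), siVPS37BC (1.29%), siVPS37A (1.83%), siVPS37B (1.72%) or siVPS37C (0.496%) against siCTRL. At an unadjusted p under 0.05 the count was 1 each in siVPS37AB, siVPS37AC, siVPS37BC and siVPS37A, and 0 in siVPS37B and siVPS37C. None passed for siCTRL against NT (3.17% of genes called; 2 isotypes unadjusted). The same was so for siVPS37ABC against siVPS37AB (1.04%; 0 unadjusted) and against siVPS37AC (4.35%; 0 unadjusted). Against siVPS37BC 1 rose and 1 fell (12% of genes called, 3 isotypes unadjusted). The median difference of the 7 isotypes in siVPS37ABC against siCTRL was 0.066, beside 0.028 for all genes tested. With the replicate block, 2 isotypes rose in siVPS37ABC (33.1% of all genes called), 2 in siVPS37AB (25.6%) and 1 in siVPS37AC (11.8%) against siCTRL, and 1 in siCTRL against NT (8.86%). For siVPS37ABC against siVPS37BC, 2 rose and 1 fell with the block (22.4% of genes called). Against siCTRL and NT these counts, 1 or 2 of 7, are near the share of all genes. For siVPS37ABC against siVPS37BC the count is above that share, both with the block, at 3 of 7, and without it. Neither difference from the share was tested.

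TUBB3 remained a minor part of the beta-tubulin RNA in all groups. It made up 6.68% ± 0.876 of the summed TPM of the 5 beta isotypes in siVPS37ABC, 7.09% ± 1.14 in siVPS37AB and 1.95% ± 0.367 in siCTRL (SD, n = 3 each). In the other knockdowns it was 3.93% in siVPS37AC, 4.00% in siVPS37BC, 4.83% in siVPS37A, 3.74% in siVPS37B and 3.09% in siVPS37C, and in NT it was 2.19%. The summed beta TPM was 2846 ± 159 in siVPS37ABC and 2599 ± 268 in siCTRL (SD, n = 3 each), and the library values overlapped. TUBB held 76.6% ± 0.449 of that sum in siVPS37ABC and 81.6% ± 2.60 in siCTRL. TUBB2A held 3.32% ± 0.594 in siVPS37ABC and 2.37% ± 0.201 in siCTRL. Panel reads come from amplicons and not from whole transcripts, and whether the division by transcript length makes levels comparable between genes was not tested.

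**Figure D3:**
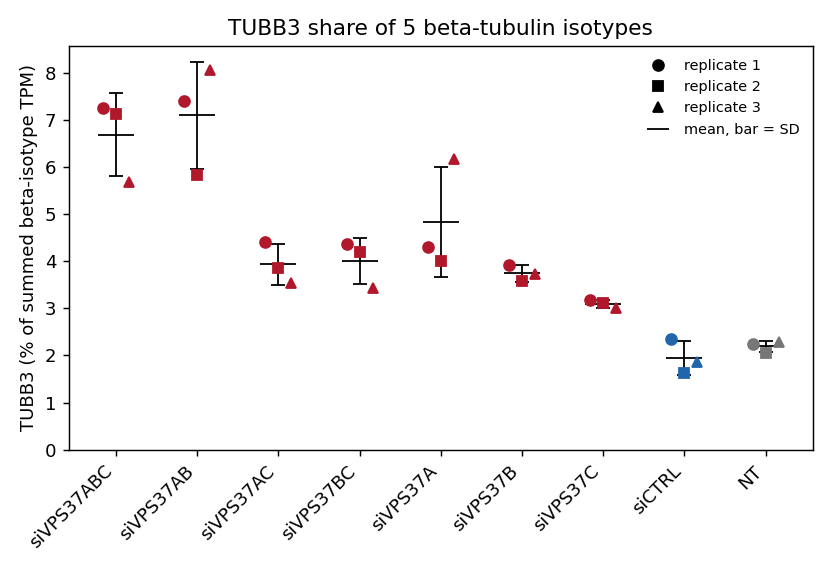
TUBB3 as a percentage of the summed TPM of TUBB3, TUBB, TUBB6, TUBB2A and TUBB4B (vertical axis) by group (horizontal axis); points are libraries, with mean and SD, n = 3 each. The siVPS37ABC libraries lie between 5.67% and 7.25%, and those of siCTRL between 1.63% and 2.35%.

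The isotypes followed TUBB3 across the 27 libraries to very different degrees. Pearson's r with TUBB3 in log2(TPM + 1) was 0.721 for TUBB2A (Spearman's rho 0.714), 0.474 for TUBA1C, 0.276 for TUBB6, 0.244 for TUBB, 0.021 for TUBA1B, -0.147 for TUBB4B and -0.255 for TUBA4A. After the group means were removed, the order changed, with 0.805 for TUBB, 0.783 for TUBA1B, 0.578 for TUBA1C, 0.517 for TUBA4A, 0.430 for TUBB2A, 0.378 for TUBB6 and 0.269 for TUBB4B. So replicates of a group that were high in TUBB3 tended to be high in TUBB and TUBA1B, while between groups TUBB and TUBA1B did not follow TUBB3. This did not hold in every group. In siVPS37AB, replicate 3 had 210.5 TPM of TUBB3 but 1965 TPM of TUBB, the lowest TUBB value of its group. These correlations are descriptions with no p, because libraries of the same replicate number share a batch and all are scaled to the same total. The siVPS37A library of replicate 3 is an example of joint high values, with 198.8 TPM of TUBB3, 2575 TPM of TUBB and 7258 TPM of TUBA1B, each the highest of its group. The correlations after removal of group means were not computed without this library. TUBA1B and TUBA4A had an r of 0.772 with each other over the 27 libraries.

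**Figure D4:**
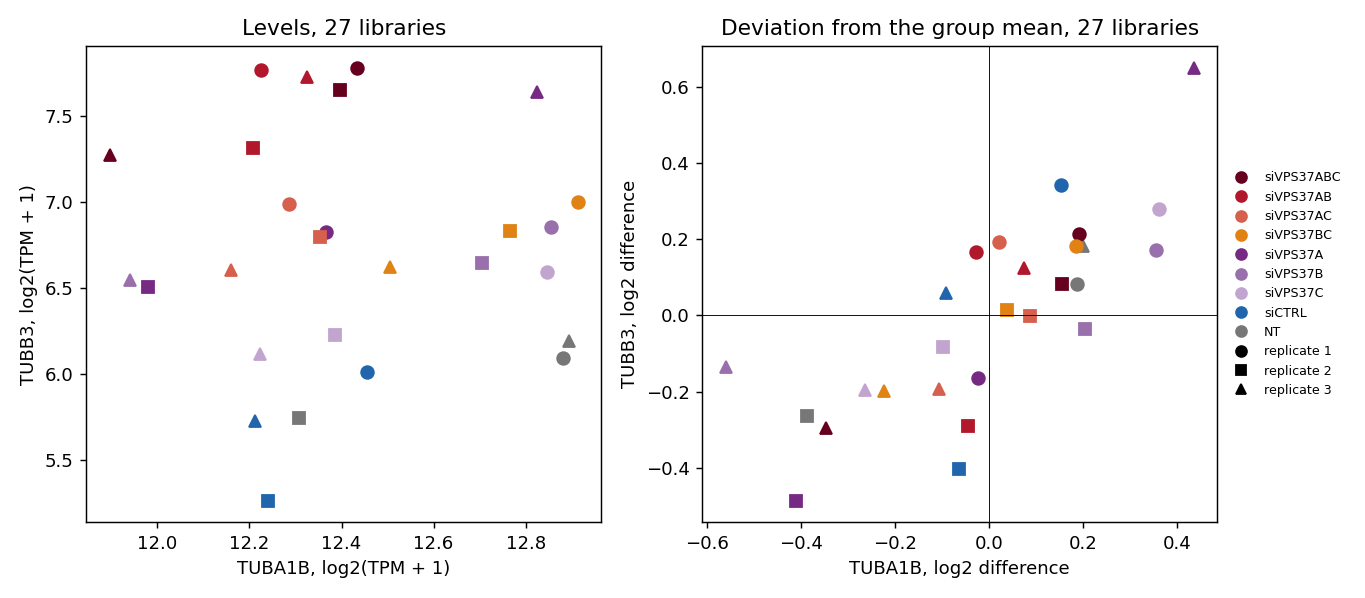
TUBB3 (vertical axes) against TUBA1B (horizontal axes) in 27 libraries, as levels in log2(TPM + 1) on the left and as deviations from the group mean on the right, coloured by group and shaped by replicate. Pearson's r is 0.021 for the levels and 0.783 for the deviations.

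The genes most like TUBB3 in this sense were TNKS1BP1 (r = 0.898), MKNK2 (0.890), TMEM184B (0.887), PTS (0.887), MSANTD3 (0.875) and ULBP2 (0.874), among 6458 genes over 27 libraries. MKNK2, a kinase of the translation factor eIF4E, averaged 176 ± 13.3 TPM in siVPS37ABC cells and 77.3 ± 8.34 TPM in siCTRL cells (SD, n = 3 each). ULBP2, a stress ligand of the receptor NKG2D, averaged 29.2 ± 8.42 TPM in siVPS37ABC cells and 11.7 ± 0.891 TPM in siCTRL cells. The most opposed were NUCKS1 (-0.872), PSIP1 (-0.847) and AXIN2 (-0.827), a Wnt target gene that averaged 55.0 ± 9.64 TPM in siVPS37ABC cells and 105 ± 17.5 TPM in siCTRL cells. These genes were picked for their pattern, so their group differences carry no test here. TUBB2A stood 178th in this ranking.

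The neighbours of TUBB3 on chromosome 16 had smaller differences, and the difference from that of TUBB3 was not tested. TCF25 averaged 96.9 TPM in siVPS37ABC cells and 80.0 TPM in siCTRL cells (difference 0.26 ± 0.18 in log2(TPM + 1), SE, limma adjusted p = 0.341). DBNDD1 averaged 45.2 TPM in siVPS37ABC cells and 30.9 TPM in siCTRL cells (0.51 ± 0.19, limma adjusted p = 0.058, and 0.0211 with the replicate block). MC1R and DEF8 were below the filter, at 1.16 and 2.64 TPM in siVPS37ABC cells and 0.775 and 1.84 TPM in siCTRL cells. In siVPS37AB cells DEF8 averaged 3.18 TPM (0.55 ± 0.18 against siCTRL, limma adjusted p = 0.0383 in the model without the filter). No gene of the RefSeq table overlaps TUBB3.

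Few genes that nucleate, fold, modify or regulate tubulin were called. In siVPS37ABC against siCTRL 21.9% of all genes were called, and the counts of these lists were not tested against that share. In siVPS37ABC against siCTRL, none of 8 tested gamma-tubulin complex and rare tubulin genes passed in limma (1 at an unadjusted p under 0.05), with a median difference of -0.147. TUBG1, the nucleating gamma-tubulin, averaged 161 TPM in siVPS37ABC cells and 197 TPM in siCTRL cells (adjusted p = 0.0981). None of 20 folding genes (chaperonin, prefoldin and tubulin cofactors) passed (2 unadjusted), with a median of -0.073. With the replicate block, where 33.1% of all genes were called, TCP1, CCT3 and CCT7, subunits of the chaperonin, fell (limma adjusted p = 0.0474, 0.00136 and 0.0317). With NT in place of siCTRL 3 folding genes rose and none fell, and the share of all genes called in that fit is not given here. The prefoldin subunit PFDN5 had the highest mean of these, 650 TPM in siVPS37ABC cells and 670 TPM in siCTRL cells. None of 4 tubulin-modifying enzymes passed (1 unadjusted), with a median of 0.097, and TTLL12 averaged 157 TPM in siVPS37ABC cells and 125 TPM in siCTRL cells (adjusted p = 0.0916). Of 6 genes of tubulin mRNA autoregulation 1 rose, CNOT7, a deadenylase of the CCR4-NOT complex. CNOT7 averaged 55.7 TPM in siVPS37ABC cells and 34.1 TPM in siCTRL cells (0.67 ± 0.18, limma adjusted p = 0.00868), and without siVPS37ABC replicate 3 its adjusted p was 0.0672. With NT in place of siCTRL the CNOT7 difference was 0.28 (adjusted p = 0.286). TTC5, which recognises nascent tubulin, averaged 3.83 TPM in siVPS37ABC cells and 4.77 TPM in siCTRL cells and was below the filter. Of the alpha- and beta-tubulin genes outside the 8, 1 had a row, TUBA8, at 2.84 TPM in siVPS37ABC cells and 2.12 TPM in siCTRL cells.

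Of 17 tested genes for microtubule-associated proteins and dynamics, 4 rose and 1 fell in siVPS37ABC against siCTRL (median 0.271, beside 0.028 for all genes). That is near the 21.9% of all genes called in this comparison. MAP7D1, a microtubule-associated protein, averaged 16.8 TPM in siVPS37ABC cells and 9.99 TPM in siCTRL cells (0.70 ± 0.15 in log2(TPM + 1), SE, limma adjusted p = 0.000946). MAP4, the common microtubule stabiliser of non-neuronal cells, averaged 67.4 TPM in siVPS37ABC cells and 43.1 TPM in siCTRL cells (adjusted p = 0.00787). CAMSAP1, which binds minus ends, and CLIP1, which tracks plus ends, also rose (adjusted p = 0.0109 and 0.0411). KIF2C, a microtubule-depolymerising kinesin named here after its value was seen, fell by 0.58 on the log2 scale (adjusted p = 0.0478). In siVPS37AB against siCTRL MAP7D1, MAP4, CAMSAP1 and CLIP1 rose as well (limma adjusted p = 0.0122, 0.034, 0.0245 and 0.0372).

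Of 16 tested mitotic spindle genes, none rose and 5 fell in siVPS37ABC against siCTRL, with a median of -0.339. Of all 6458 genes tested, 880 rose and 537 fell in this comparison (21.9% called in either direction). The count that fell was 7 with the replicate block, where 881 of all 6458 genes fell (33.1% called in either direction). It was 4 with NT in place of siCTRL, a fit whose share of all genes is not given here. TPX2, a spindle assembly factor, averaged 68.8 TPM in siVPS37ABC cells and 119 TPM in siCTRL cells (-0.78 ± 0.12, SE, limma adjusted p = 2.55e-05). CKAP2 averaged 28.6 TPM in siVPS37ABC cells and 46.1 TPM in siCTRL cells (adjusted p = 0.000903). KNSTRN and the kinesin KIF20A also fell (adjusted p = 0.00183 and 0.00306), as did NUF2, named after its value was seen (adjusted p = 0.0448). The summed TPM of 18 spindle genes ran from 741 to 811 in siVPS37ABC libraries, 743 to 807 in siVPS37AB libraries and 927 to 1008 in siCTRL libraries. In bulk RNA, fewer cells in mitosis and less RNA per cell cannot be told apart. Without single libraries KIF2C, NUF2, CLIP1 and CAMSAP1 lost their calls (highest adjusted p 0.269, 0.221, 0.283 and 0.0711), and with library number as a term MAP4, CAMSAP1, KIF2C and NUF2 did (0.12, 0.107, 0.165 and 0.269). With NT in place of siCTRL the calls of MAP4, KIF2C, KNSTRN and NUF2 were lost (0.142, 0.165, 0.0651 and 0.123). In a fit of the 2 groups alone CLIP1, KIF2C, CAMSAP1 and NUF2 were not called (0.115, 0.0945, 0.0617 and 0.0503).

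Epithelial genes such as EPCAM, KRT8 and KRT18 were high in all groups, VIL1 was low (0.809 to 3.82 TPM), and markers of other cells were low. Of 7 tested colon epithelial genes 4 rose in siVPS37ABC against siCTRL (EPCAM, KRT19, KRT20 and CDH17), beside 880 of all 6458 genes that rose (21.9% called in either direction). In limma 2 rose in siVPS37AB, 1 in siVPS37AC, 1 in siVPS37B and 0 in siVPS37BC, siVPS37A and siVPS37C (3, 2 and 1 of these last at an unadjusted p under 0.05). The largest was KRT20, a keratin of differentiated colonocytes, at 95.5 TPM in siVPS37ABC cells and 27.9 TPM in siCTRL cells (1.75 ± 0.19, limma adjusted p = 2.17e-07). With NT in place of siCTRL the KRT20 difference was 0.70 (adjusted p = 0.00769), and EPCAM and CDH17 were not called (0.0507 and 0.0876). EPCAM also lost its call without siVPS37ABC replicate 2 or 3 or any 1 siCTRL library (0.0587 to 0.126), and in a fit of the 2 groups alone (0.113), and CDH17 without siVPS37ABC replicate 3 (0.0508). The summed TPM of 8 epithelial genes ran from 10120 to 11501 in siVPS37ABC libraries and 8191 to 9414 in siCTRL libraries. This sum averaged 8954 in siCTRL and 8728 in siVPS37B. In the other knockdowns it averaged 11168.5 in siVPS37A, 11035 in siVPS37ABC, 10528 in siVPS37BC, 10324 in siVPS37C, 9945 in siVPS37AC and 9857 in siVPS37AB. The NT libraries ran from 8358 to 11396, which overlapped siVPS37ABC and siCTRL. MAP2 was at 0.690 to 0.964 TPM in siVPS37ABC libraries and 0.427 to 0.520 TPM in siCTRL libraries. Of the fibroblast, leukocyte and endothelial markers 4 of 15 had a row (ACTA2, CD14, CSF1R and EGFL7), each under 10 TPM in every library. CSF1R averaged 1.87 TPM in siVPS37ABC cells and 0.0952 TPM in siCTRL cells, and CD14, the other leukocyte marker, 3.62 TPM in siVPS37ABC cells and 7.75 TPM in siCTRL cells. The part of these genes in the TUBB3 difference was not tested.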

How the data were processed

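RNA of 27 DLD1 libraries (9 groups, 3 each) was measured with an Ion AmpliSeq panel, per the labels' protocols. HTSeq 0.6.0, DESeq2 1.18.1 and the build hg19 appear, without roles, in the submitters' processing notes. The deposited table is named as normalized counts, but every column sums to 1000000. Low values multiplied by transcript length lie on steps (28.6 to 49.8% of them, tolerance 0.03). For a step fixed in advance 6% would do so by chance. Each library's step was instead chosen for the highest share, so chance would give more than 6%, and how much more was not tested. The deposited values were taken as TPM. Count tests (edgeR, DESeq2) were therefore not run. The steps gave the estimated depth of 5290000 to 14400000 reads. Lines with no identifier (2157) were left out, and 11 of 282690 values are 0.

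The scale was log2(TPM + 1), on which differences of low genes are understated. The 6458 genes that averaged 10 TPM or more entered 1 limma 3.58.1 model (R 4.3.3) with a mean for each group, an intensity trend and 18 residual degrees of freedom. P-values were adjusted by the Benjamini-Hochberg method over these genes within each of 11 comparisons (threshold 0.05), and genes below the filter come from the same model without it. The model was tested on simulated data. Shares, correlations and promoter matches (Python 3.11.15) are descriptions.

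The members, gene lists, tests and motifs were chosen with earlier results of these data known. Named genes were the isotypes, the targets, the 6 genes most and 3 least correlated with TUBB3, the 2 nearest measured genes on each side of it, and up to 4 called members of each list, or the member with the highest mean. The labels give a batch equal to the replicate number, so the numbers pair the libraries. After removal of group means, same-numbered libraries had a mean r of 0.355 (lowest -0.386; 95 of 108 pairs over 0.1) and differently numbered ones -0.175.

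Alternatives were the replicate block, library number as a term, other filters, pseudocounts of 0.1 and 8, quantile and median-of-ratios scaling, NT as control, a model of the compared groups alone, and leaving out each replicate.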

Additional observations from a re-analysis of the deposited data

How the results depend on the processing

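No called isotype difference, and no TUBB3 difference between a knockdown and siCTRL, changed sign under any alternative run. Some uncalled isotype differences did, as did the small TUBB3 difference of siVPS37ABC from siVPS37AB. With the replicate block, the paired analysis, 2 of the 7 tested isotypes were called in siVPS37ABC and 2 in siVPS37AB against siCTRL, 1 in siVPS37AC and 1 for siCTRL against NT, beside 33.1%, 25.6%, 11.8% and 8.86% of all genes, and apart from these and TUBA1C in siVPS37ABC against siVPS37BC (adjusted p = 0.0368) the block changed no other call of an isotype. Library number as a term newly gave 1 called isotype each in siVPS37AB, siVPS37AC and siCTRL against NT, and TUBB2A stayed called in siVPS37ABC against siCTRL. With NT in place of siCTRL the counts were 2 in siVPS37ABC and 1 each in siVPS37AB, siVPS37AC and siVPS37A. TUBA4A then fell in siVPS37ABC by 0.63 (limma adjusted p = 0.00361). Leaving out 1 library at a time gave 0 to 1 called isotypes in siVPS37ABC and in siVPS37AB against siCTRL, and 1 to 2 in siVPS37ABC against siVPS37BC. The share of all genes called with library number, with NT as control or without 1 library is not given here. The isotype counts of those fits therefore cannot be set against a background.

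The TUBB3 difference moved to 1.53 in siVPS37ABC, 1.34 in siVPS37AB, 0.76 in siVPS37AC and 0.56 in siVPS37BC with library number as a term. Against NT it was 1.56, 1.59, 0.79 and 0.81 in these groups, 0.98 in siVPS37A, 0.67 in siVPS37B and 0.30 in siVPS37C. With single libraries left out, the siVPS37A difference from siCTRL ran from 0.999, without siVPS37A replicate 3, to 1.57. The cause of these moves was not tested. Quantile scaling moved the median gene by up to -0.107 (siVPS37AB against siCTRL), and the calls in siVPS37ABC against siCTRL were then 777 higher and 720 lower genes, beside 880 and 537.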
